A study of Arabidopsis thaliana with 9 samples.

Results

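Genes for calcium sensors and other proteins annotated with EF-hands were followed in Arabidopsis thaliana leaves. The leaves differed in their genotype at VQ28, a gene for a VQ motif protein. The members were taken as every gene whose annotation in the deposited table names an EF-hand, a calmodulin-like protein or calcineurin B and does not name a kinase, which gave 81 of 33610 genes. The rosette leaves were detached, uninfected and 30 days old. The genotypes were the overexpression line VQ28OE9, the line labelled as a knockout, VQ28KO12, and wild-type Col-0 (WT), with 3 libraries each. Each altered genotype was 1 line, and neither the promoter of the overexpression construct nor the knockout allele is described in the labels. Whether libraries of 1 genotype are separate plants is not labelled either, and every p-value here is measured against library spread that may be only technical.

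Calcium ions enter the cytosol when plant cells are touched, wounded, chilled or attacked, and proteins with EF-hands bind them and change shape. Calmodulin-like (CML) proteins then act on target proteins, while calcineurin B-like (CBL) proteins recruit CBL-interacting kinases (CIPKs) to membranes. Several CML mRNAs are themselves induced quickly by touch, and the TCH genes were named for this.

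VQ28 mRNA (AT4G20000) stood at 6244, 4665 and 5942 FPKM (fragments per unit of gene length and of sequencing depth) in the VQ28OE9 libraries, against 8.70, 0.456 and 6.72 FPKM in WT. In the libraries labelled VQ28KO12 it was 8.36 and 10.1 FPKM in replicates 1 and 2 and had 0 count units in replicate 3, and these values overlapped WT (edgeR log2 difference 0.14 ± 1.17, SE; exact two-sided permutation p = 0.9). VQ28OE9 against WT gave 10.03 ± 1.67 (edgeR adjusted p = 0.0215), with an exact permutation p of 0.1, the smallest that 3 against 3 libraries allow. The library totals were 64552605 to 95223547 units. The 18S ribosomal RNA gene AT2G01010 had 122 units in WT replicate 3 and 20000 to 77475 units in the other libraries. The part of this difference in the results was not tested. VQ28OE9 replicate 3 and WT replicate 3 stood apart from the other 7 libraries on the second principal component of all tested genes, and the libraries labelled VQ28KO12 replicate 2 and WT replicate 2 did so on the third. All 6 mesophyll markers were present, flower markers summed to at most 0.264 FPKM in any library, and all 3 root hair markers were at 0.

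Of the 81 members, 49 had a mean of at least 1 FPKM over the 9 libraries and were tested, a share of 60.5%, against 47.8% of all genes. Among the 32 others, 15 had 0 units in all 9 libraries, among them CBL7, CBL8, UNE14 and EDA34. By role, 6 of 11 members annotated as calcineurin B-like, 8 of 11 named calmodulin-like and 35 of 59 other EF-hand genes were tested. The untested genes include CBL4, the sensor of the SOS salt tolerance pathway in roots, at a mean of 0.118 FPKM over the 9 libraries. CML30 was also untested. Its 224 units were all in 1 library, that labelled VQ28KO12 replicate 1, and it overlaps AT2G15690.

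CML12, also known as TCH3, was the most abundant member on the FPKM scale. It stood at 762, 564 and 459 FPKM in VQ28OE9, at 308, 595 and 322 in the libraries labelled VQ28KO12, and at 458, 586 and 284 in WT. The 3 genotypes overlapped, and the fitted log2 differences were 0.41 ± 0.32 for VQ28OE9 against WT and -0.16 ± 0.32 for VQ28KO12 against WT (SE; edgeR adjusted p = 0.582 and 0.9997). AT2G41090, its tandem neighbour and the second most abundant, averaged 326 ± 53.3 FPKM in VQ28OE9, 403 ± 44.6 in VQ28KO12 and 362 ± 41.0 in WT (SD, n = 3 each). The transcripts of the 2 genes are 83.5% identical over 419 aligned bases, so reads could be shared between them. AT2G46600 averaged 263 ± 42.3 FPKM in VQ28OE9, 169 ± 41.3 in VQ28KO12 and 185 ± 19.98 in WT. AT2G41410 averaged 191 ± 35.8, 126 ± 36.6 and 145 ± 24.9 FPKM in the same order of genotypes, and AT1G18210 averaged 103 ± 21.1, 90.0 ± 24.1 and 93.6 ± 25.2 FPKM. AT2G46600 and AT1G18210 each overlap another gene, which makes their levels uncertain. In WT, neither CML12 and AT2G41090 nor AT2G46600 and AT2G41410 were separated by more than the spread of their libraries.

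**Figure D1:**
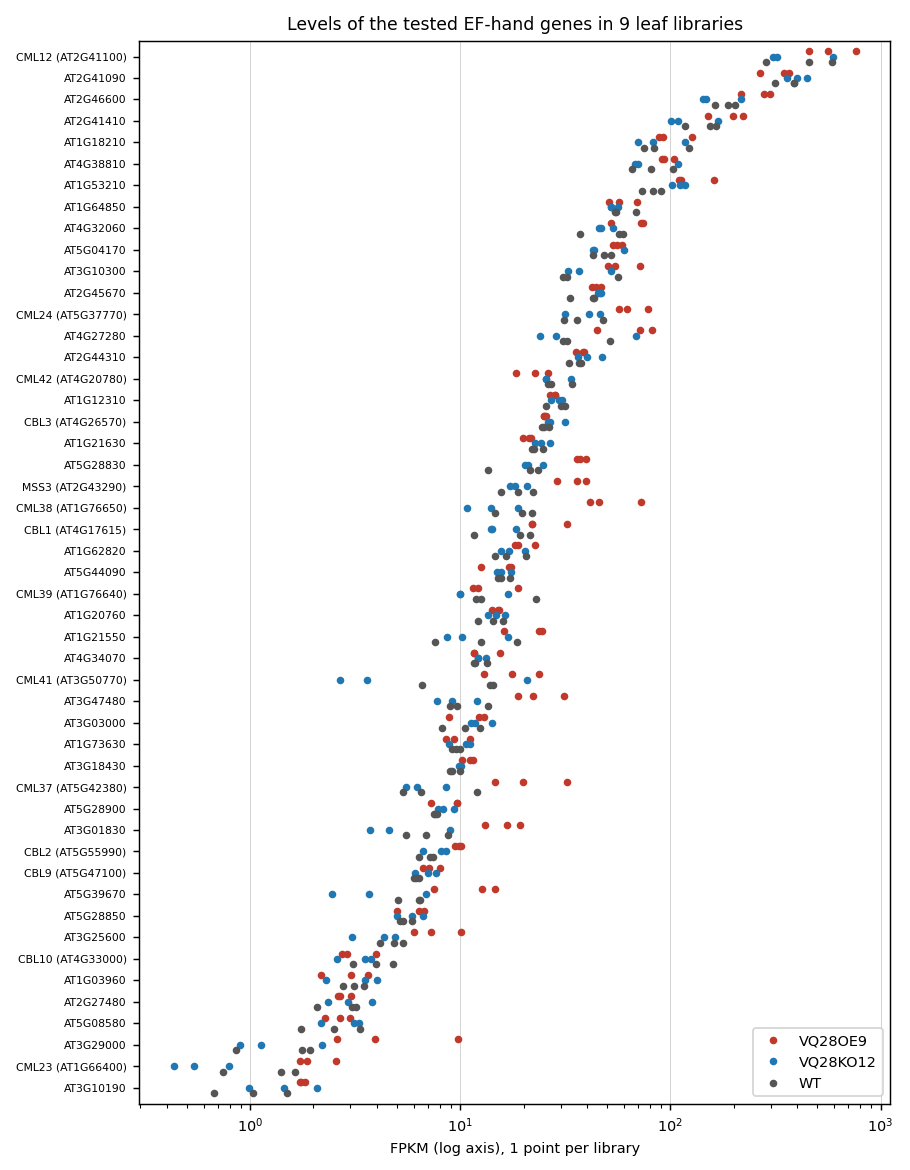
FPKM (log axis) of the 49 tested EF-hand genes, ordered by their mean in WT, with 1 point for each library of VQ28OE9, VQ28KO12 and WT. The points run from 0.432 FPKM for CML23 to 762 FPKM for CML12, and the red VQ28OE9 points lie right of the others for CML38, CML37, MSS3 and AT5G28830.

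The members differed in how steady they were. The ratio of the highest to the lowest library had a median of 1.86 over the 49 members, against 1.77 over all tested genes. The smallest ratios were 1.23 for AT1G12310 and 1.29 for CBL3 and AT3G18430. Ratios over 4 occurred in 7 members, with 11.5 for AT3G29000, 8.77 for CML41, 6.72 for CML38, 6.01 for CML37, 5.97 for AT5G39670, 5.90 for CML23 and 5.16 for AT3G01830.

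In VQ28OE9 against WT, 4 members were higher and 0 lower. CML38 rose most on the log2 scale among these 4, followed by AT3G47480, AT5G28830 and MSS3. These 4 are 8.16% of the 49 tested, against 1.37% of all 16050 tested genes called higher; 0.935% of all genes were called lower and 2.31% either way (edgeR's quasi-likelihood test, adjusted p under 0.05). In all, 38 of 49 members had a positive log2 difference, against 49.6% of all genes, and their median was 0.21, against -0.0029 over all genes. The VQ28OE9 libraries lay wholly above WT in 19 members (13% of all genes) and wholly below in 2 (9.24%). At an unadjusted p under 0.05 there were 13 members, all higher in VQ28OE9 (26.5%, against 17.4% of all genes in either direction).

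CML38, a calmodulin-like protein known for its induction by wounding and low oxygen, stood at 72.2, 41.5 and 45.7 FPKM in VQ28OE9, against 22.0, 19.7 and 14.6 in WT. All 3 VQ28OE9 libraries were higher than every WT library, and the means were 53.1 ± 16.7 and 18.8 ± 3.80 FPKM (SD, n = 3 each). The fitted log2 difference was 1.49 ± 0.27 (SE; edgeR adjusted p = 0.0273). CML39, the adjacent gene, has a transcript 82.9% identical to it over 434 aligned bases. CML39 stood at 11.5, 12.2 and 18.7 FPKM in VQ28OE9, against 11.8, 23.0 and 12.6 in WT, with the 2 genotypes overlapping (log2 difference -0.18 ± 0.33). The ratio of CML38 to CML39 in FPKM was 6.29, 3.41 and 2.44 in VQ28OE9, 1.41, 1.11 and 1.08 in the libraries labelled VQ28KO12, and 1.86, 0.858 and 1.16 in WT. This pair was chosen after its values were seen, and no test was made on the ratio.

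MSS3, whose product suppresses a yeast snf4 mutant, stood at 39.6, 28.9 and 35.9 FPKM in VQ28OE9, against 15.6, 22.2 and 18.9 in WT, without overlap. Its log2 difference was 0.87 ± 0.18 (edgeR adjusted p = 0.0398). AT5G28830, annotated only as an EF-hand family protein, stood at 39.7, 36.0 and 37.2 FPKM in VQ28OE9, against 21.5, 23.5 and 13.6 in WT. The VQ28OE9 libraries lay close together and the WT libraries spread more, with WT replicate 3 lowest. The log2 difference was 0.93 ± 0.19 (edgeR adjusted p = 0.0369). AT3G47480, with the same kind of annotation, stood at 22.3, 18.9 and 31.0 FPKM in VQ28OE9, against 9.69, 13.5 and 8.91 in WT, again without overlap. Its log2 difference was 1.15 ± 0.25 (edgeR adjusted p = 0.0472).

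Another 4 members had VQ28OE9 libraries wholly above WT and an edgeR adjusted p between the threshold and 0.1. CML37, a calmodulin-like protein of drought and herbivore responses, stood at 32.2, 14.7 and 19.98 FPKM in VQ28OE9, against 6.50, 11.97 and 5.36 in WT (log2 difference 1.48 ± 0.36, edgeR adjusted p = 0.0648). CML24, also known as TCH2, stood at 78.5, 57.2 and 62.2 FPKM in VQ28OE9, against 36.0, 48.0 and 31.0 in WT (0.77 ± 0.20, adjusted p = 0.0767). AT3G01830 and AT1G53210 had log2 differences of 1.20 ± 0.31 and 0.62 ± 0.17 (adjusted p = 0.0785 and 0.0854). No member was called lower, and the 3 with the smallest p had log2 differences of -0.40 ± 0.19 for CML42, -0.15 ± 0.10 for AT1G21630 and -0.33 ± 0.24 for CBL10 (edgeR adjusted p = 0.307, 0.495 and 0.553). CML42 is known for its part in trichome branching, and CBL10 works with the salt tolerance kinase SOS2 in shoots.

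The 4 calls rest on few libraries. Calls over all genes also fell with any 1 library left out, to between 46 and 337, against 370 with all 9. Without VQ28OE9 replicate 1, WT replicate 1 or WT replicate 3, no member was called (count 0 each); without VQ28OE9 replicate 2 or WT replicate 2 there were 2, without VQ28OE9 replicate 3, VQ28KO12 replicate 1 or VQ28KO12 replicate 3 only CML38 (count 1), and without VQ28KO12 replicate 2 there were 5. All 4 stayed positive in every alternative run, with the highest adjusted p at 0.0847 for CML38, 0.125 for AT5G28830, 0.16 for MSS3 and 0.238 for AT3G47480.

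**Figure D2:**
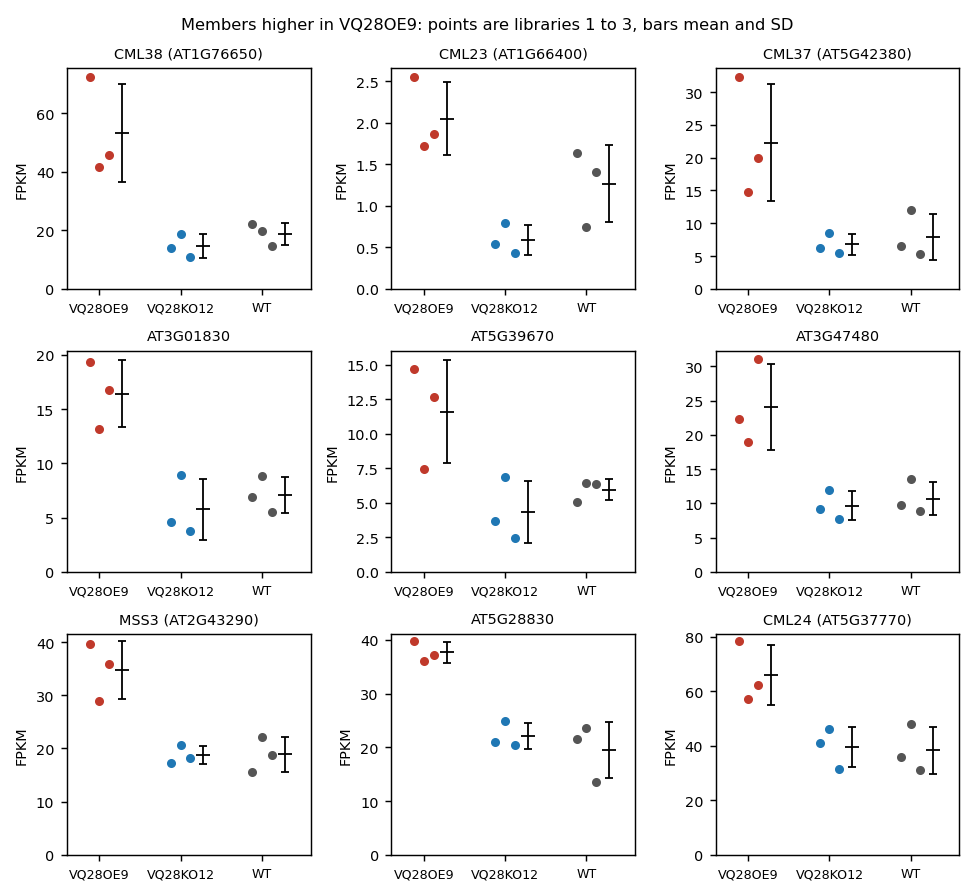
FPKM of the 9 members called in VQ28OE9 against VQ28KO12, which include the 4 called against WT. Points are libraries 1 to 3 of each genotype from left to right, and bars are mean and SD (n = 3). The VQ28OE9 points of CML38 lie between 41.5 and 72.2 FPKM, above every VQ28KO12 and WT point.

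In the libraries labelled VQ28KO12 against WT, 0 of 49 members passed the test in either direction. Of all genes, 0.00623%, a single gene, was called higher. CML23, a calmodulin-like relative of TCH2, had the smallest p. It stood at 0.542, 0.793 and 0.432 FPKM in VQ28KO12, against 1.64, 0.747 and 1.41 in WT. Replicate 2 of WT fell within the range of the VQ28KO12 libraries, and the log2 difference was -1.16 ± 0.39 (edgeR adjusted p = 0.935).

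AT1G53210, the Na+/Ca2+ exchanger NCL, which carries EF-hands, stood at 118, 112 and 102 FPKM in VQ28KO12, against 73.1, 90.7 and 82.7 in WT, without overlap. Its log2 difference was 0.37 ± 0.17 (edgeR adjusted p = 0.982). The VQ28KO12 libraries lay wholly above WT in 3 members (8% of all genes) and wholly below in 0 (2.76%). The median over the members was -0.022, against 0.0013 over all genes, and 20 of 49 were positive, against 50.3% of all genes. At an unadjusted p under 0.05 there were 2 members, 4.08% against 5.03% of all genes, and DESeq2 and limma also called 0. The next smallest p were for AT2G45670 and AT2G44310 among higher members (log2 difference 0.17 ± 0.11 and 0.16 ± 0.13), and for CML38 and AT5G39670 among lower ones (-0.42 ± 0.26 and -0.52 ± 0.37).

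In VQ28OE9 against VQ28KO12, 9 members were higher and 0 lower, 18.4% of those tested, against 3.71% of all genes called higher, 2.62% called lower and 6.33% called either way. By role, 4 of 8 members named calmodulin-like rose (CML38, CML23, CML37 and CML24). Of 35 other EF-hand members 5 rose (AT3G01830, AT5G39670, AT3G47480, MSS3 and AT5G28830), and 0 of 6 calcineurin B-like members did. With 3.71% of all genes called higher, 0 of 6 is not read as a difference between roles. Roles went by gene names and annotation only, so the other EF-hand group may also hold calmodulin-like proteins. The counts by role therefore depend on naming and are not read as a difference between kinds of protein. The 4 members called against WT were all among the 9. Both comparisons use the same VQ28OE9 libraries, so they are not independent, and this count is given as a description.

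CML38 stood at 14.1, 18.8 and 10.8 FPKM in the libraries labelled VQ28KO12, below every VQ28OE9 library, and its log2 difference was 1.90 ± 0.27 (edgeR adjusted p = 0.00837). CML37 stood at 32.2, 14.7 and 19.98 FPKM in VQ28OE9, against 6.25, 8.58 and 5.51 in VQ28KO12 (1.75 ± 0.36, edgeR adjusted p = 0.0244). The groups did not overlap in either gene. CML24 stood at 78.5, 57.2 and 62.2 FPKM in VQ28OE9, against 40.9, 46.2 and 31.6 in VQ28KO12 (0.77 ± 0.20, adjusted p = 0.0495). CML23, the least abundant of these, stood at 2.55, 1.72 and 1.87 FPKM in VQ28OE9, against 0.542, 0.793 and 0.432 in VQ28KO12 (1.83 ± 0.39, adjusted p = 0.0257). CML23 and CML24 have both been linked to nitric oxide and flowering time, and neither overlapped between the groups.

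AT3G01830 stood at 19.3, 13.1 and 16.8 FPKM in VQ28OE9, against 4.59, 8.90 and 3.74 in VQ28KO12 (1.55 ± 0.32, edgeR adjusted p = 0.0233). AT5G39670 stood at 14.7, 7.47 and 12.6 FPKM in VQ28OE9, against 3.68, 6.84 and 2.46 in VQ28KO12 (1.46 ± 0.37, adjusted p = 0.046). Neither overlapped between the groups, though VQ28OE9 replicate 2 lay just above VQ28KO12 replicate 2 for AT5G39670, and both genes overlap a neighbouring gene in the deposited table (AT3G01840 and AT5G39680), so their levels are uncertain. AT3G47480 was 9.17, 11.99 and 7.78 FPKM in VQ28KO12 (1.36 ± 0.25, adjusted p = 0.018). MSS3 was 17.3, 20.7 and 18.3 FPKM in VQ28KO12 (0.92 ± 0.18, adjusted p = 0.0199), and AT5G28830 was 20.9, 24.9 and 20.4 (0.80 ± 0.18, adjusted p = 0.0339). All 3 had every VQ28OE9 library above every VQ28KO12 library.

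The VQ28OE9 libraries lay wholly above VQ28KO12 in 14 members (12.1% of all genes) and wholly below in 2 (14.4%). The median log2 difference was 0.24, against -0.0071 over all genes, and 35 of 49 were positive, against 49% of all genes. At an unadjusted p under 0.05 there were 17 members, all higher (34.7%, against 21.2% of all genes in either direction). No member was called lower, and the 3 with the smallest p, AT1G21630, AT2G41090 and CML42, had log2 differences of -0.20 ± 0.10, -0.28 ± 0.15 and -0.30 ± 0.19. Without VQ28KO12 replicate 1 or VQ28KO12 replicate 3 only CML38 was called (count 1), without VQ28OE9 replicate 1 there were 2, without VQ28OE9 replicate 3 there were 3, and without VQ28KO12 replicate 2 there were 12. Calls over all genes ranged over 131 to 1240 with 1 library left out, against 1016 with all 9. CML38 was called in all 19 alternatives, with a highest adjusted p of 0.0439.

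**Figure D3:**
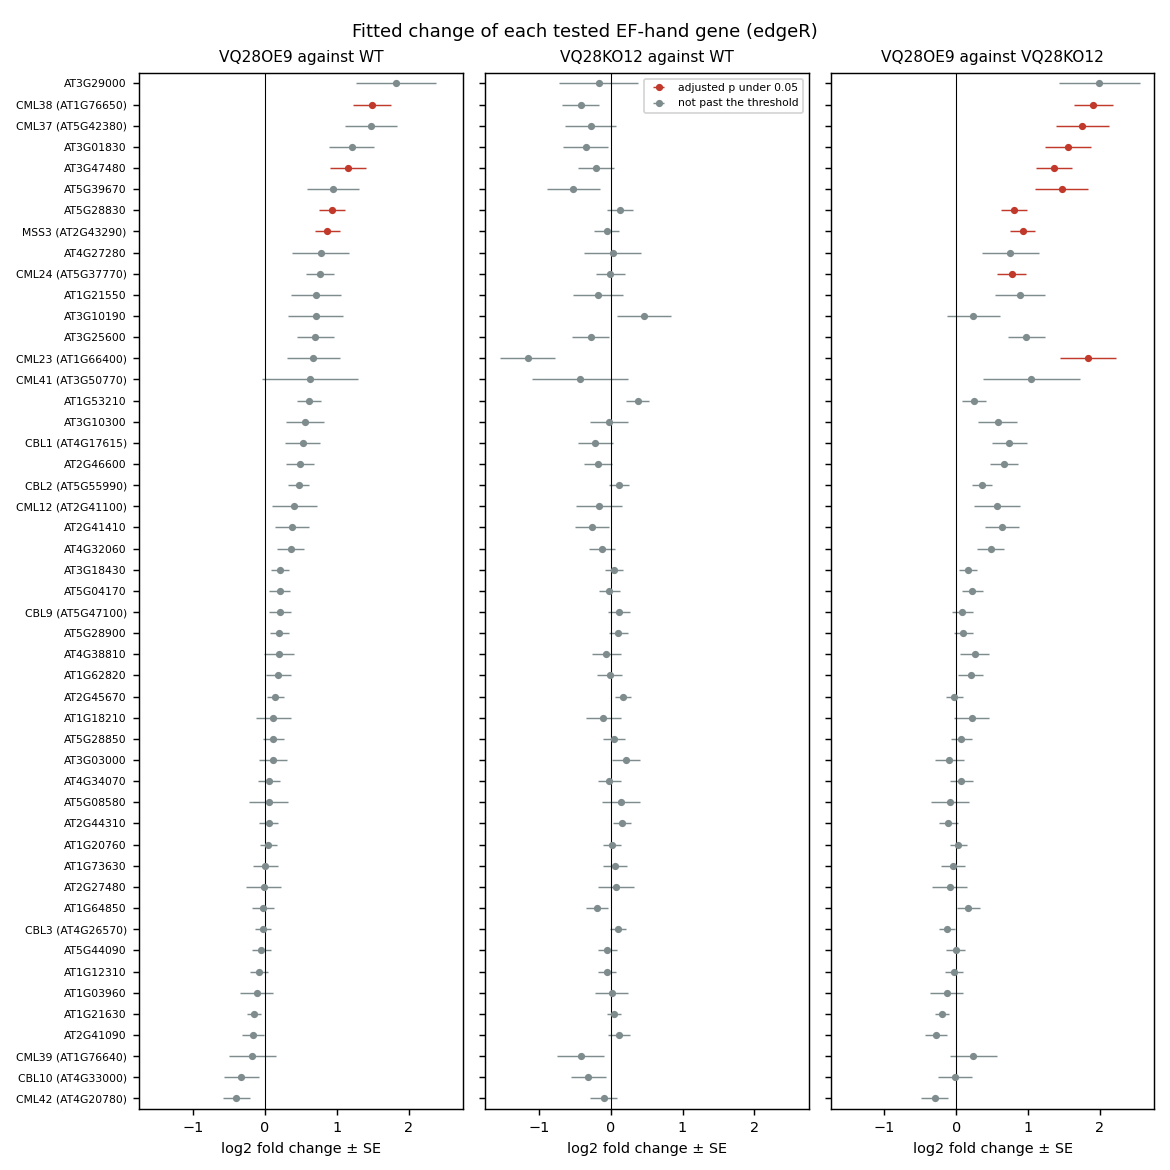
Fitted log2 difference (± SE) of each of the 49 tested EF-hand genes in the 3 comparisons, ordered by the difference between VQ28OE9 and WT. Red points passed an adjusted p under 0.05, 4 in VQ28OE9 against WT, 0 in VQ28KO12 against WT and 9 in VQ28OE9 against VQ28KO12; grey points did not pass.

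**Figure D4:**
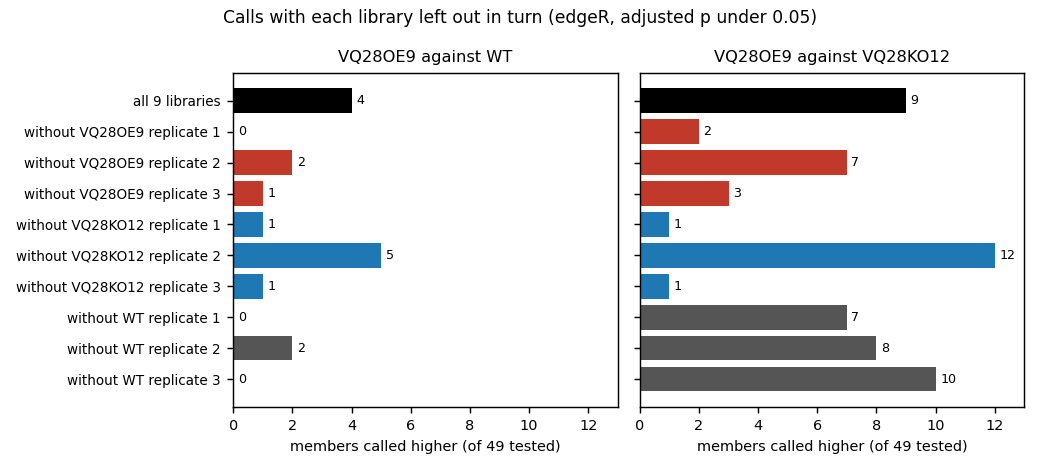
Number of the 49 tested members called higher by edgeR with all 9 libraries and with each library left out in turn, for both comparisons with VQ28OE9. The counts run between 0 and 5 against WT and between 1 and 12 against VQ28KO12. Calls over all genes with 1 library left out ran between 46 and 337 and between 131 and 1240.

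The calcineurin B-like members did not pass in any comparison with all 9 libraries in the edgeR fit. Without WT replicate 3, edgeR called CBL1 higher in VQ28OE9 against VQ28KO12, and DESeq2 called CBL2 higher in VQ28OE9 against WT and CBL1 against VQ28KO12. CBL1 and CBL9, which bring CIPK23 to the plasma membrane, have transcripts 85.4% identical over 472 bases. CBL1 averaged 25.4 ± 6.04 FPKM in VQ28OE9, 15.6 ± 2.51 in VQ28KO12 and 17.5 ± 5.23 in WT (SD, n = 3 each), and CBL9 averaged 7.23 ± 0.674, 6.93 ± 0.807 and 6.18 ± 0.167. CBL2 and CBL3, sensors of the vacuolar membrane, averaged 9.79 ± 0.346 and 25.2 ± 0.394 FPKM in VQ28OE9, 7.79 ± 0.997 and 28.1 ± 2.99 in VQ28KO12, and 6.97 ± 0.560 and 25.3 ± 1.06 in WT. CBL2 had a log2 difference of 0.47 ± 0.14 against WT with no overlap (edgeR adjusted p = 0.121). The VQ28OE9 libraries of CBL1 and CBL9 also lay wholly above WT, which made 3 of 6 calcineurin B-like members. The same held for 4 of 8 members named calmodulin-like and 12 of 35 other EF-hand members, against 13% of all genes. Wholly below WT were 0, 1 and 1 members of these roles, against 9.24% of all genes. AT2G45670, which entered this group through its annotation rather than as a CBL gene, was its most abundant member, at 44.5 ± 2.16, 46.1 ± 0.698 and 39.7 ± 5.67 FPKM in VQ28OE9, VQ28KO12 and WT.

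Several library and tissue measures also differed between libraries or genotypes. VQ28OE9 replicate 1 was the highest of its genotype in 29 of 49 members (59.2%, against 29% of all tested genes), VQ28KO12 replicate 2 in 33 (67.3%, against 35.7%) and WT replicate 2 in 26 (53.1%, against 31.9%). Summed over the members, FPKM were 3137, 2471 and 2468 in VQ28OE9, 1911, 2542 and 1955 in VQ28KO12, and 2096, 2437 and 1871 in WT, so that VQ28KO12 replicate 2 lay above 2 of the VQ28OE9 libraries. In bulk leaves, fewer cells of a type and less RNA per cell cannot be told apart. The 5 guard cell markers summed to 19.8 to 24.1 FPKM in VQ28OE9, 16.4 to 23.4 in VQ28KO12 and 13.9 to 15.5 in WT, with 4 of 5 at a mean of at least 1 FPKM. These markers did not all go the same way. FAMA and HT1 were wholly above WT in VQ28OE9, as was SDD1, which reached only 0.304 FPKM. KAT1 (3.6, 6.1 and 4 FPKM in VQ28OE9, against 5.5, 4.7 and 5.4 in WT) and MYB60 overlapped WT. In the libraries labelled VQ28KO12, FAMA, HT1 and MYB60 were wholly above WT, while KAT1 and SDD1 overlapped WT. The 6 mesophyll markers summed to 36700 to 41710 FPKM in VQ28OE9, 42200 to 51260 in VQ28KO12 and 42660 to 49280 in WT. The 4 vascular markers summed to 250 to 296 FPKM in VQ28OE9, 219 to 251 in VQ28KO12 and 253 to 272 in WT. Among 12 tested genes of a touch, wound and cold list (TCH4, ZAT10, CBF2 and others), 0 passed in VQ28OE9 against WT. All 12 were positive, against 49.6% of all genes, and their median log2 difference was 0.62, against -0.0029 over all genes. In VQ28OE9 against VQ28KO12, 12 of 12 were positive (49% of all genes), with a median of 0.53, against -0.0071. In VQ28KO12 against WT, 4 were positive and 8 negative (50.3% of all genes positive), with a median of -0.042, against 0.0013. The part of each of these in the member results was not tested.

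Other genes of calcium signalling were read from lists matched by gene name, which need not hold a whole family. In VQ28OE9 against WT, CIPK12, of the kinases that CBL proteins recruit, was 1 of 19 CIPK genes called, at 45.4 ± 4.18 FPKM in VQ28OE9 and 29.6 ± 2.27 in WT (log2 difference 0.60 ± 0.11, edgeR adjusted p = 0.0313). CNGC17, of the cyclic nucleotide-gated channels, was 1 of 14 called, at 8.37 ± 1.51 FPKM in VQ28OE9 and 5.04 ± 0.665 in WT (0.71 ± 0.15, adjusted p = 0.0434). Of all tested genes, 1.37% were called higher and 0.935% lower in this comparison, so 1 call in a list is not read as a result about its family. In VQ28KO12 against WT, 0 genes of any list were called. In VQ28OE9 against WT, none of 7 calmodulin, 21 CPK, 3 CAMTA, 3 CBP60 or SARD1, 18 IQD, 10 GLR, 2 OSCA or TPC1, 12 calcium pump, 7 CAX and 4 annexin genes was called (0 in each list). All 3 CBP60 or SARD1 genes were nonetheless positive there. SARD1 stood at 1.13 ± 0.28, CBP60G at 1.48 ± 0.39 and CBP60A at 1.07 ± 0.29 (edgeR adjusted p = 0.0699, 0.0801 and 0.0911). CAM5 was at -0.47 ± 0.11 (adjusted p = 0.0521).

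Against VQ28KO12, CBP60A, CBP60G and SARD1 were higher, the only 3 CBP60 or SARD1 genes found by name and not the whole family. Of all tested genes, 3.71% were called higher and 2.62% lower in this comparison. SARD1, an activator of salicylic acid synthesis, averaged 11.9 ± 2.16 FPKM in VQ28OE9 and 3.94 ± 1.57 in VQ28KO12 (log2 difference 1.63 ± 0.29, edgeR adjusted p = 0.0159). CBP60G averaged 19.99 ± 5.10 and 5.42 ± 2.80 FPKM in the same groups (1.92 ± 0.39, adjusted p = 0.0234), and CBP60A averaged 41.1 ± 8.76 and 16.7 ± 4.67 FPKM (1.33 ± 0.30, adjusted p = 0.0299). Of 12 calcium pumps 2 were higher, ACA1 (1.17 ± 0.25) and ECA2 (0.65 ± 0.16). CPK4, CIPK12, CNGC1 and CAX9 were the called genes of their lists, at log2 differences of 0.79 ± 0.18, 0.61 ± 0.11, 0.54 ± 0.12 and 1.05 ± 0.18. The lower genes were CAM5 (1 of 7 calmodulins, -0.49 ± 0.11), GLR3.2 (1 of 10, -0.77 ± 0.19) and CAX11 (1 of 7 exchangers, -0.81 ± 0.20). Single calls in a list are again given as values and not as a result about the family.

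**Figure D5:**
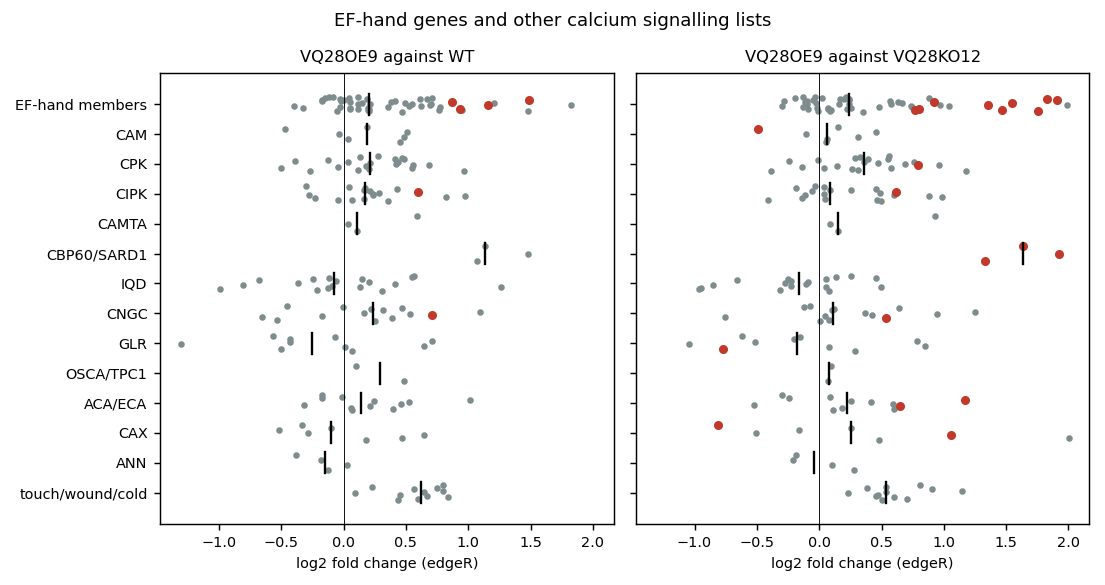
Fitted log2 difference of the tested members and of each calcium signalling list in VQ28OE9 against WT and in VQ28OE9 against VQ28KO12, with 1 point per gene and a vertical bar at each median. Red points passed an adjusted p under 0.05, including 4 and 9 of the members. Against VQ28KO12 they include the 3 CBP60 and SARD1 genes that were found by name.

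Some features of the called members do not come from the rule. Of the 49 tested members 23 have a RefSeq transcript with 1 exon, while 7 of the 9 called against VQ28KO12 and 3 of the 4 called against WT do. The median log2 difference in VQ28OE9 against WT was 0.67 over the members with 1 exon and 0.17 over those with 2 or more. Against VQ28KO12 these medians were 0.75 and 0.09. No such values were computed for 1-exon genes outside the members, so the contrast is not shown to be particular to them.

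The 250 bases before the RefSeq gene start were searched on both strands for 3 short motifs, since VQ proteins partner with WRKY factors and CAMTA factors read a CGCG core. TTGAC, the core of the W-box that WRKY factors bind, was present in 23 of 49 members (46.9%, against 44.8% of tested genes) and in 4 of the 9 called. CGCG was present in 7 of 49 (14.3%, against 11%) and in 3 of the 9, and ACGTG, the core of the abscisic acid response element, in 11 of 49 (22.4%, against 24.2%) and in 0 of the 9. Of the 4 called against WT, 1 held TTGAC and 0 held CGCG or ACGTG. CGCG occurred at least 2 times in 2.08% of tested genes, and in 3 of 49 members (6.12%), which were CML23, CML24 and AT3G18430, the last of which was not called. The windows of CML23 and CML24 are shown because the 2 genes are close relatives (80.3% identity over 458 transcript bases) with different levels, and that of AT3G01830 because it holds 3 TTGAC and 1 CGCG. Sequences are from RefSeq (TAIR10.1), 5′ to 3′ on the gene's strand, with TTGAC (or its complement GTCAA) and CGCG in capitals.
CML23, chr1:24771394-24771643, minus strand: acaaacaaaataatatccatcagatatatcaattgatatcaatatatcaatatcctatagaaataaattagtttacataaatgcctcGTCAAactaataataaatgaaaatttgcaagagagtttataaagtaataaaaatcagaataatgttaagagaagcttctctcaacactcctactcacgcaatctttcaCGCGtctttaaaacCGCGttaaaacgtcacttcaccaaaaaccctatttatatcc
CML24, chr5:14999620-14999869, minus strand: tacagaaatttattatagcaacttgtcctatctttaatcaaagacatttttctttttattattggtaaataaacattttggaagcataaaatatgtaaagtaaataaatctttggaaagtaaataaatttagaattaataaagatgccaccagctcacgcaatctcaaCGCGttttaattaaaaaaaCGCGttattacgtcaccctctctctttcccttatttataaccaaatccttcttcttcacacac
AT3G01830, chr3:295774-296023, plus strand: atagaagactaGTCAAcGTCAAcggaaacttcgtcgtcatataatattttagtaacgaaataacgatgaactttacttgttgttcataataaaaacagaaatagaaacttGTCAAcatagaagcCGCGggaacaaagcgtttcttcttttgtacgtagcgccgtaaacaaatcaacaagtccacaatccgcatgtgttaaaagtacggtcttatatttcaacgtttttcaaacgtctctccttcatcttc

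Both CML windows hold their 2 CGCG copies near the gene start, at positions -55 and -41 in CML23 and -82 and -63 in CML24, counted back from it, and only CML23 also holds TTGAC, at -163. In AT3G01830 TTGAC lies at -239, -233 and -140 and CGCG at -126. A match is a description of these letters and not a binding site.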

How the data were processed

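The authors deposited 1 table with an FPKM and a whole-number count per gene and library, per the file headers. Counts as deposited were taken to be estimated counts, since 48.7% to 57.0% of values from 1 to 16 are multiples of 4; they are called units. The authors list genes without counts at an FPKM of 0.0001. Poly(A) RNA was made into dUTP-marked paired libraries, per the labels' protocols; the aligner, counter, build and any use of strand in counting are not named in labels or headers. The members and lists were chosen with earlier results of these data known. Genes with a mean of at least 1 FPKM over 9 libraries (16050) were tested with edgeR 4.0.16 (R 4.3.3, TMM, quasi-likelihood, two-sided), all 9 libraries in 1 fit with 1 mean per genotype; p-values were Benjamini-Hochberg adjusted over all tested genes and called under 0.05. The units entered as deposited. SEs are the log2 difference divided by the square root of F. Steps were tested on simulated data. Alternatives were DESeq2 1.42.0 and its size factors, limma 3.58.1 on log2(FPKM + 1) and log2(FPKM + 0.1), other filters, only the libraries compared, a replicate block, units divided by 4, and leaving libraries out.

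Named members were those called in each comparison, the 3 smallest p in a direction where none was, the 5 most abundant in WT, and the most abundant of each role; other names were chosen after their values were seen. Names, transcripts and sequences are from RefSeq TAIR10.1, matched by locus tag for all 81 members (each overlaps its deposited coordinates). Transcript identities are from BLAST+ 2.17.0. Alpha carbonic anhydrases sharing the ACA symbols were removed from the calcium pump list after values were seen. AT4G20000 stands for VQ28, by the published family numbering. Same-numbered libraries did not deviate together in every pair, so the numbers were not taken to pair them.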

Additional observations from a re-analysis of the deposited data

How the results depend on the processing

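In VQ28OE9 against WT, the 4 members higher became 10 with DESeq2, 1 with only the 6 libraries compared, 2 with the replicate block and 0 without both WT replicate 3 and VQ28OE9 replicate 3; leaving out 1 library at a time gave 0 to 5. In VQ28OE9 against VQ28KO12, the 9 became 13 with DESeq2, 8 with the replicate block and 1 to 12 with 1 library left out. VQ28KO12 against WT gave 0 in every alternative run. The number of all genes called also shifted with 1 library left out, as given above, and the cause of these shifts was not tested. The other alternatives are given here without the share of all genes called. Their member counts are therefore not read as results about the members. VQ28 itself lost its call in VQ28OE9 against WT without both WT replicate 3 and VQ28OE9 replicate 3 (log2 difference 10.2), and with 1 library left out it ranged over 9.49 to 10.6 and lost the call without VQ28OE9 replicate 1, WT replicate 1 or WT replicate 3; in VQ28OE9 against VQ28KO12 it ranged over 9.30 to 10.5 and lost it without VQ28KO12 replicate 1. Same-numbered libraries correlated at 0.183, -0.078 and 0.414 between VQ28OE9 and WT. These values were 0.176, 0.280 and 0.037 between VQ28KO12 and WT, and -0.071, -0.231 and 0.040 between VQ28OE9 and VQ28KO12. The block is given only here. For the named members, 1018 of 1134 values under an alternative kept their direction and side of the threshold, 76 lost the call, 10 gained one and 30 changed sign. None of the sign changes touched a called difference (lowest adjusted p 0.896), and their cause was not tested. In VQ28KO12 against WT, limma with pseudocounts 0.1 and 1 gave 0.0524 and 0.0511 for CML24, 0.00204 and 0.00147 for MSS3, and -0.648 and -0.021 for VQ28, and the filter at a mean of 5 FPKM gave 0.00399 for CML24. In VQ28OE9 against VQ28KO12, the replicate block gave 0.00787 for CBL10. Leaving out each library in turn, or WT replicate 3 and VQ28OE9 replicate 3 together, gave ranges of -0.328 to 0.136 for AT1G18210, -2.12e-05 to 0.0922 for AT1G21630, -0.00213 to 0.194 for AT2G41090, -0.0725 to 0.283 for AT5G28830, -0.529 to 0.0911 for CML12, -0.134 to 0.187 for CML24, -0.496 to 0.139 for CML37, -0.237 to 0.0422 for CML42, -0.184 to 0.0723 for MSS3 and -0.44 to 0.73 for VQ28 in VQ28KO12 against WT. In VQ28OE9 against WT the ranges were -0.0779 to 0.347 for AT1G18210 and -0.0162 to 0.109 for AT2G44310, and in VQ28OE9 against VQ28KO12 they were -0.0394 to 0.00268 for AT2G45670 and -0.175 to 0.083 for CBL10. Depth limits members near 1 FPKM: in its lowest library CML23 had 34 units, about 4 to a fragment.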

Other observations

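AT3G29000 and CML41 had the widest spread over the 9 libraries among the tested members and passed no comparison with all 9 libraries in the edgeR fit. DESeq2 called AT3G29000 higher in VQ28OE9 against both other genotypes, and without VQ28KO12 replicate 2 edgeR called CML41 higher in VQ28OE9 against VQ28KO12. AT3G29000 stood at 9.78, 2.58 and 3.93 FPKM in VQ28OE9, at 0.898, 2.19 and 1.12 in VQ28KO12, and at 1.92, 1.77 and 0.853 in WT. Its VQ28OE9 libraries lay above all others, with replicate 1 far above the other two (log2 difference from WT 1.82 ± 0.56, edgeR adjusted p = 0.121). CML41, a plasmodesmal protein of callose deposition, stood at 13.0, 17.7 and 23.6 FPKM in VQ28OE9, at 2.69, 20.7 and 3.61 in VQ28KO12, and at 6.55, 14.4 and 13.8 in WT. The library labelled VQ28KO12 replicate 2 was thus within the VQ28OE9 range and the other two lay below every WT library.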
